A study of Mus musculus with 17 samples.

Results

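Intercalated cells are the acid-base cells of the renal connecting tubule and collecting duct. Transcripts of 9 genes that mark these cells were followed by name through the kidney cortices of 4 groups of mice, out of 48795 genes in the deposited count table. Atp6v1b1, Atp6v0a4, Atp6v0d2 and Atp6v1g3 encode the B1, a4, d2 and G3 subunits of the vacuolar proton pump that intercalated cells use. Slc4a1 encodes the chloride-bicarbonate exchanger AE1, and Aqp6 a water and anion channel of intracellular vesicles, both of type A cells. Slc26a4 encodes pendrin, the apical chloride-bicarbonate exchanger of type B cells, Slc4a9 the basolateral transporter AE4 of type B cells, and Foxi1 the forkhead transcription factor on which intercalated cells depend.

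In type A cells the proton pump sits in the apical membrane and AE1 returns bicarbonate to the blood across the basolateral membrane, so that the cell secretes acid. Type B cells carry pendrin in the apical membrane and secrete bicarbonate. The pump has a membrane sector that conducts protons and a peripheral sector that hydrolyses ATP, and several of its subunits exist as a widely expressed form and a form restricted to a few epithelia. The a4 subunit is also made in proximal tubules. AE1 is also the band 3 protein of red cells, and the d2 subunit is also made in osteoclasts and macrophages.

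The study asked what the transcription factor ATF4 does in proximal tubules, and sequenced polyadenylated RNA of the renal cortex. WT was the group labelled wild type, with 5 samples. GCERAd, with 5 samples, carried floxed ATF4 alleles and a tamoxifen-dependent Cre recombinase driven by the Ggt1 promoter, so that the deletion was aimed at proximal tubules and not at intercalated cells. To delete ATF4 in GCERAd, tamoxifen was given on 2 consecutive days at 6 weeks of age. Whether WT mice also received it is not stated in the sources used here. The study's mice were fasted for 16 hours before tissue was taken, about a month after the first injection. TRACK, with 3 samples, is a transgenic mouse model of cancer of the kidney, and GCERAdT, with 4 samples, is labelled as TRACK with an ATF4 knockout. The age and the treatment of the mice of the TRACK and GCERAdT groups are not given in the sources used here. Each sample was labelled as a mouse of its own, but the extraction protocol speaks of 3 to 4 mice a cohort, so some of the 5 libraries of WT and of GCERAd may share a mouse. SDs, SEs and p-values below treat libraries as separate and would then be too small.

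Totals on genes were between 53688512 and 71364561 per library, and a member had between 1001 and 27378 reads in a library, so counting error was small beside the spread between libraries. Atf4 was at 84.5 ± 9.81 CPM (SD, n = 5) in WT and at 65.4 ± 9.3 CPM (SD, n = 5) in GCERAd. CPM values are counts scaled to a common library size. The log2 fold change of Atf4 was -0.38 (adjusted p = 0.0218, edgeR), but GCERAdT did not have less of it than TRACK (0.17, adjusted p = 0.367). All 5 WT libraries held Xist at 149 CPM or more and a summed level of the Y-linked Ddx3y, Eif2s3y, Uty and Kdm5d of at most 0.306 CPM, whereas the other 12 had Y-linked transcripts at 130 CPM or more and Xist at up to 6.07 CPM. Sex and group cannot be told apart in comparisons with WT. Libraries GCERAd 4 and 5 stood apart from GCERAd 1, 2 and 3, with a chi-square of the counts, per gene, of 243 to 296 between libraries of the 2 sets against 31.7 to 66.6 among GCERAd 1, 2 and 3. In some genes GCERAd 4 and 5 had levels like those of TRACK: Tfcp2l1, a transcription factor gene of collecting ducts, was at 297, 300 and 307 CPM in GCERAd 1 to 3, at 785 and 668 CPM in GCERAd 4 and 5 and between 655 and 798 CPM in TRACK. Pck1, a gluconeogenic enzyme gene, was at 966 to 1367 CPM in the first 3, at 8629 and 8163 CPM in the other two and between 5556 and 8904 CPM in TRACK. The labels were kept, and results that change without either set are given both ways. Processed pseudogenes took from 0.032% to 0.038% of the reads in 8 libraries and from 0.0574% to 0.0784% in 9, with none in between. The higher range held all 3 TRACK libraries and 1 of 5 WT libraries. The range that a library fell in was also used as a covariate with 2 levels. Below it is named by the share of processed pseudogenes, but the share itself was not fitted.

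All 9 genes were over the level used for testing in every group. That level was a mean FPKM of 1, where FPKM is the CPM divided by the length of the gene's merged exons in kilobases, so that genes can be compared. Atp6v0a4 was the highest in all 4 groups, at 78.3 ± 4.67 FPKM (SD, n = 5) in WT, and did not overlap with the gene below it. In WT it was followed by Atp6v1g3 at 33.3 FPKM and Atp6v1b1 at 31.3 FPKM, whose samples overlapped with each other but not with the next gene. Aqp6, Slc26a4, Foxi1, Atp6v0d2 and Slc4a1 came next, from 23.8 down to 13.2 FPKM, each overlapping with its neighbour in that order. Slc4a9 was the lowest in all 4 groups, at 6.92 ± 1.03 FPKM (SD, n = 5) in WT. The a4 subunit therefore led the other intercalated cell subunits in level, and it is the one whose transcripts are known from proximal tubules as well.

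The positions below are those of GENCODE M21 on GRCm38. Atp6v1b1 lies on chromosome 6 from 83742990 to 83758855, and Atp6v0a4 on the same chromosome from 38048483 to 38124586. Foxi1, on chromosome 11 from 34204338 to 34208089, and Slc4a1, on the same chromosome from 102348824 to 102366203, are far apart. Slc26a4 lies on chromosome 12 from 31519827 to 31559969 and Aqp6 on chromosome 15 from 99601400 to 99605477. Of the 9 genes, Atp6v0a4 alone overlaps with other genes in this annotation, among them Tmem213 on the opposite strand, itself an intercalated cell gene. The libraries were stranded, but whether the counting used the strand is not given in the sources used here, so reads of the pair may have been shared.

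Foxi1 is known to act on promoters of pump and anion exchanger genes of these cells. The RefSeq promoters of the members (GRCm38.p6, 250 bases before to 50 bases after the start of transcription) were searched for TGTTTAC, read on both strands as TGTTTAC or GTAAACA. A looser form, TGTTTNC or GNAAACA, contains the first and so overlaps with it. The promoters of 6 of the 9 members were in the table used, those of Atp6v1b1, Atp6v0a4, Atp6v1g3, Slc26a4, Foxi1 and Aqp6. TGTTTAC was found in 1 of them, Atp6v1b1, at bases -98 to -92, and in 3.65% of all 32851 promoters of this length. The looser form was found in Atp6v1b1, Atp6v1g3, Slc26a4 and Foxi1, and in 20.5% of all promoters. Such a match is a description of letters and not a binding site. Promoters with a match did not all move with Foxi1 among libraries of a group. With group means removed, the Pearson r with Foxi1 was 0.59 for Slc26a4, 0.08 for Atp6v1b1 and -0.26 for Atp6v1g3. It was -0.01 for Atp6v0a4 and -0.31 for Aqp6, which had no match. A link between the letters and these values was not tested. Bases -250 to -51 of 4 promoters are shown: the pump subunit with the full match, Foxi1 and Slc26a4 with the looser form, and Aqp6 with none. Capitals mark the forkhead letters.
Atp6v1b1, chr6:83742767-83742966, plus strand: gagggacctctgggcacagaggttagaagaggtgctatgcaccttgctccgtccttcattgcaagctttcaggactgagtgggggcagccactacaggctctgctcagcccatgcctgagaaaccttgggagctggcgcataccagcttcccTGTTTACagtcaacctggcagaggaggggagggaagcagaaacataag
Foxi1, chr11:34208140-34208339, minus strand: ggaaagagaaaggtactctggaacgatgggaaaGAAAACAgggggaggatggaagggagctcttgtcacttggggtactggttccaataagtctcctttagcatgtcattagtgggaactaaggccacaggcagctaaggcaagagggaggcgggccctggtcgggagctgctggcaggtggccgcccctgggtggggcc
Slc26a4, chr12:31560035-31560234, minus strand: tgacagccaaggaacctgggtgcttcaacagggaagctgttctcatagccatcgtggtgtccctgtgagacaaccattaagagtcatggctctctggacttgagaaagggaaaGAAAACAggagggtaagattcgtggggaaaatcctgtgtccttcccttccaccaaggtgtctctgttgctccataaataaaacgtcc
Aqp6, chr15:99600950-99601149, plus strand: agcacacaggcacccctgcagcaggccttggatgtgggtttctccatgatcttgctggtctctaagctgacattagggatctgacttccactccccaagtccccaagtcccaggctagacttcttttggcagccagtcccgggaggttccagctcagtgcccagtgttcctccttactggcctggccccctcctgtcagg

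GCERAd over WT compared the cortex after the deletion in proximal tubules with that of wild-type mice. The deletion, the Cre transgene, the floxed alleles and any difference in tamoxifen treatment cannot be told apart in it. Intercalated cell transcripts were lower in GCERAd: 6 of the 9 genes were called lower and none higher (edgeR, quasi-likelihood test, p-values adjusted by the Benjamini-Hochberg method over all 11581 genes tested). Of all genes tested 13.5% were called lower and 27.6% were called in either direction. The 6 were Slc4a1, Aqp6, Foxi1, Atp6v1b1, Slc4a9 and Atp6v0d2, so pump subunits, genes of type A and of type B cells and the transcription factor were all among them. In the 6 libraries of the lower pseudogene range alone (4 WT, 2 GCERAd) 6 of the 9 were called, with Atp6v0a4 and Atp6v1g3 in place of Slc4a9 and Atp6v0d2, and in the 4 of the higher range (1 WT, 3 GCERAd) none was, of 98 genes called in all. In the higher range the changes of Slc4a1 (-0.70), Atp6v1b1 (-0.45) and Foxi1 (-0.45) were of like size to those over all libraries. Atp6v0a4 changed sign there, and all values of that range rested on 1 WT library. With WT 4 and 5 summed and GCERAd 4 and 5 summed, the most alike pair of each group, 5 of the 9 were called, without Slc4a9 (adjusted p = 0.0692). The median log2 fold change of the 9 genes was -0.43, with -0.00051 for all genes tested. In whole cortex, fewer cells of a type and less RNA per cell cannot be told apart.

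**Figure D1:**
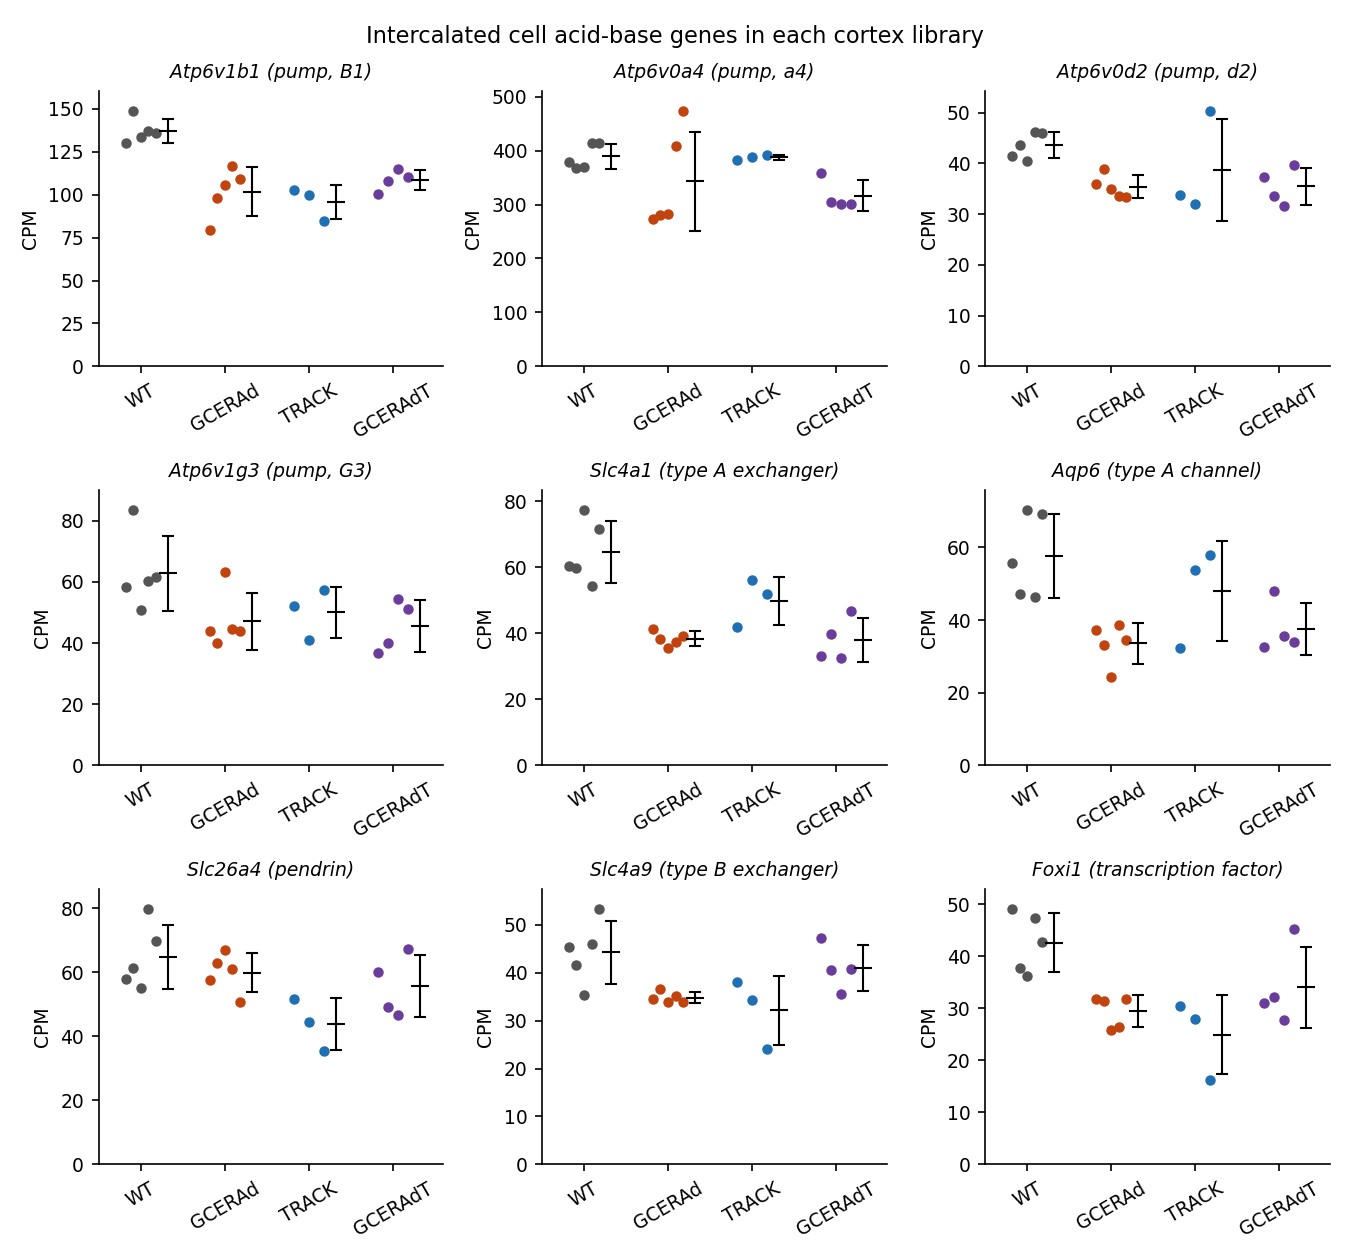
Levels in CPM (vertical axes, from 0) of the 9 genes in each library of the 4 groups (horizontal axes). Points are libraries in the order of their numbers, and the bars beside them give the mean ± SD. GCERAd lay wholly below WT for Atp6v1b1, Atp6v0d2, Slc4a1, Foxi1 and Aqp6, and the GCERAd libraries split into 3 low and 2 high for Atp6v0a4.

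The type A genes changed most. Slc4a1 was at 60.5, 59.9, 77.3, 54.3 and 71.4 CPM in WT 1 to 5 and at 41.4, 38.2, 35.7, 37.4 and 39.2 CPM in GCERAd 1 to 5. Every GCERAd library was below every WT library, and GCERAd varied little, with 38.4 ± 2.14 CPM (SD, n = 5). The log2 fold change of Slc4a1 was -0.76 ± 0.09 (SE, adjusted p = 0.000157, edgeR), or 0.59 of the WT level. Aqp6 was at 55.7, 47.1, 70.3, 46.5 and 69.2 CPM in WT and at 37.4, 33.2, 24.2, 38.7 and 34.6 CPM in GCERAd, again without overlap. Its log2 fold change was -0.79 ± 0.15 (SE, adjusted p = 0.00244). Of the 9 genes, 5 did not overlap between the groups and were lower in GCERAd (Slc4a1, Aqp6, Foxi1, Atp6v1b1 and Atp6v0d2), which 9.54% of all genes tested did.

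Since AE1 is also a red cell protein, Slc4a1 was set beside genes of red cell precursors. In GCERAd the globins Hba-a1, Hbb-bs and Hbb-bt and the haem synthesis enzyme Alas2 rose (4 of 5 genes tested, of 10 listed), while Slc4a1 fell. Of all genes tested 14.1% rose. Hbb-bs was at 67.6 ± 16.1 CPM (SD, n = 5) in WT and at 131 ± 32.1 CPM (SD, n = 5) in GCERAd, with a log2 fold change of 0.94 (adjusted p = 0.00286). The summed level of the list was between 72.3 and 131 CPM in WT and between 149 and 262 CPM in GCERAd, so the groups did not overlap. Rhag, a red cell membrane gene that defines precursors, was at 0 in 16 of 17 libraries. Between the groups Slc4a1 thus moved in the opposite direction to the globins. Within WT it did not: Hbb-bs was at 65.5, 54.3, 72.5, 53.2 and 92.7 CPM in WT 1 to 5. WT 3 and WT 5 were the highest of WT for both Hbb-bs and Slc4a1. In GCERAd the library with the highest Slc4a1, GCERAd 1, had the lowest Hbb-bs, at 107 CPM. A red cell part in the level of Slc4a1 was not tested.

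**Figure D2:**
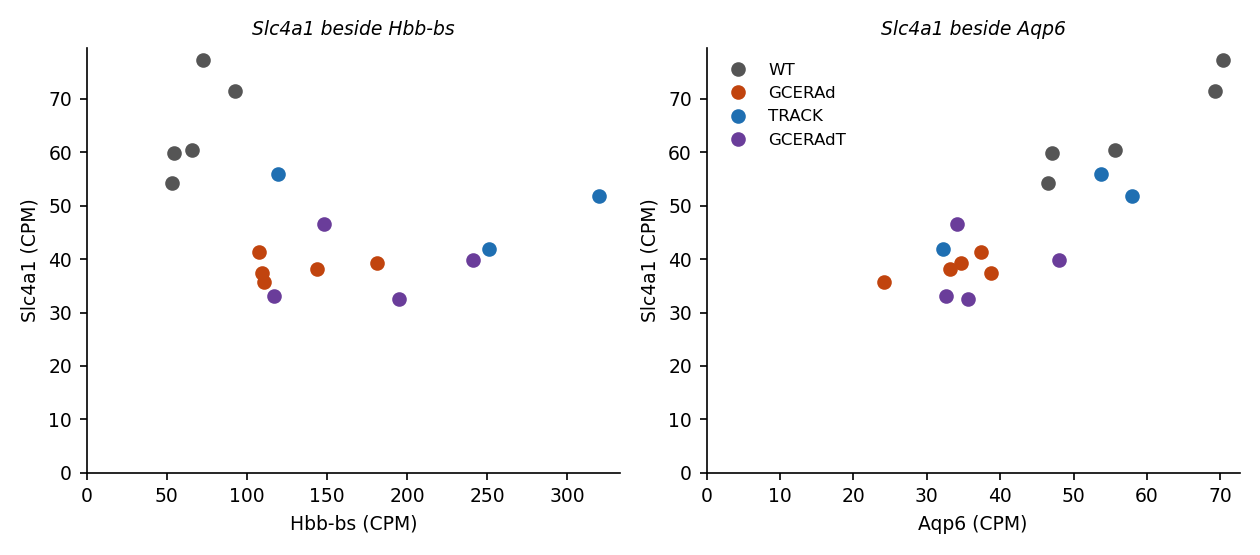
Slc4a1 (CPM, vertical axes) beside the globin Hbb-bs (CPM, left) and beside Aqp6 (CPM, right), 1 point per library. As a group WT had the highest Slc4a1 with the lowest Hbb-bs. The 2 WT libraries with the highest Aqp6, WT 3 and WT 5, also had the highest Slc4a1 and, within WT, the highest Hbb-bs.

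Type B genes were split. Slc4a9 was at 45.4, 41.5, 35.3, 45.9 and 53.3 CPM in WT and at 34.6, 36.6, 33.8, 35.1 and 33.9 CPM in GCERAd. The groups overlapped at WT 3, and the log2 fold change of -0.36 ± 0.10 (SE) was called with an adjusted p of 0.0196 (edgeR). That call was lost without GCERAd 4 and 5 (adjusted p = 0.0588) and without GCERAd 1, 2 and 3 (adjusted p = 0.0563). Slc26a4 was at 57.7, 61.4, 55.0, 79.7 and 69.6 CPM in WT and at 57.6, 62.8, 67.0, 61.0 and 50.7 CPM in GCERAd. Its groups overlapped widely, with a log2 fold change of -0.12 ± 0.12 (SE, adjusted p = 0.466).

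The per-length ratio of Slc4a1 to Slc26a4, the anion exchangers of type A and type B cells, had a median of 0.653 in WT, with a range from 0.433 to 0.894. In GCERAd the median was 0.39 and the range from 0.338 to 0.492, so the groups overlapped at the lowest WT value. Foxi1, which both cell types express, was at 49.1, 37.8, 36.2, 47.2 and 42.7 CPM in WT and at 31.8, 31.4, 25.8, 26.3 and 31.7 CPM in GCERAd. No GCERAd library reached the lowest WT library, and the log2 fold change was -0.54 ± 0.11 (SE, adjusted p = 0.00286).

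Of the 4 intercalated cell subunits of the pump, 2 were called lower. Atp6v1b1 was at 130, 149, 134, 137 and 136 CPM in WT and at 79.7, 97.8, 106, 117 and 109 CPM in GCERAd, without overlap. Its log2 fold change was -0.44 ± 0.09 (SE, adjusted p = 0.0048). Atp6v0d2 was at 41.4, 43.7, 40.5, 46.2 and 45.9 CPM in WT and at 35.9, 39.0, 35.0, 33.6 and 33.4 CPM in GCERAd. Its groups did not overlap either, although the change was smaller (-0.31 ± 0.07, SE, adjusted p = 0.00765). Atp6v1g3 was at 58.4, 83.6, 50.7, 60.2 and 61.6 CPM in WT and at 43.8, 39.9, 63.3, 44.5 and 43.9 CPM in GCERAd. GCERAd 3 alone lay within the WT range, and the log2 fold change of -0.43 ± 0.15 (SE) had an adjusted p of 0.0591. Atp6v1g3 was called lower by DESeq2 (adjusted p = 0.0271), with no minimum level (0.0485), with all 17 libraries in 1 fit (0.0411), with the share of processed pseudogenes as a covariate (-0.56, adjusted p = 0.00649), and without GCERAd 3 or without WT 3 (lowest adjusted p = 0.0113).

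Atp6v0a4 divided the GCERAd libraries. It was at 380, 368, 369, 415 and 413 CPM in WT and at 272, 281, 283, 408 and 474 CPM in GCERAd 1 to 5. GCERAd 1, 2 and 3 lay below every WT library, GCERAd 4 lay within the WT range and GCERAd 5 above it. Over all 5 the log2 fold change was -0.19 ± 0.15 (SE, adjusted p = 0.363). Without GCERAd 4 and 5 it was -0.48 (adjusted p = 0.000714), and without GCERAd 1, 2 and 3 it was 0.15 (adjusted p = 0.23). The other 8 genes were negative under both of these choices, and each left 6 of the 9 genes called lower, with Atp6v0a4 called in place of Slc4a9 in the first and Atp6v1g3 in place of Slc4a9 in the second.

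Macrophages and osteoclasts also make the d2 subunit, and their genes were set beside the 27.6% of all genes tested that were called. Of 6 genes of these cells tested, of 8 listed, 1 was called, the phosphatase Acp5, which was higher in GCERAd (0.34, adjusted p = 0.0129) while Atp6v0d2 was lower. The summed level of the list was between 229 and 322 CPM in WT and between 239 and 339 CPM in GCERAd. Adgre1, which defines macrophages, was between 2.47 and 5.44 CPM over the libraries of both groups.

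Most of the other pump subunits, widely expressed or not, were not called. Of 21 other subunits and accessory proteins of the pump, 19 were tested, 5 rose, 1 fell and 13 were not called, where 14.1% of all genes tested rose and 13.5% fell. On the log2 scale Atp6v1a, the catalytic A subunit, was at 0.48 (adjusted p = 0.0131), Atp6v1b2, the B2 paralog of B1, at 0.44 (adjusted p = 0.000604) and Atp6v1h at 0.41 (adjusted p = 0.0148). The subunit that fell was Atp6v1c2, the C2 form, at -0.42 (adjusted p = 0.0201). Over the 19 genes the median log2 fold change was 0.15, against -0.43 over the 9 members. The summed level of this list was between 2448 and 2647 CPM in WT and between 2646 and 3203 CPM in GCERAd.

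The ratio of Atp6v1b1 to Atp6v1b2, per length, was 0.57, 0.648, 0.582, 0.585 and 0.61 in WT 1 to 5. It was 0.289, 0.325, 0.334, 0.343 and 0.337 in GCERAd 1 to 5, so the ratio differed with a wide gap. Both parts of the ratio changed, since Atp6v1b2 was at 277 CPM in WT and at 377 CPM in GCERAd (means). Whole cortex does not show whether the 2 transcripts come from the same cells. TRACK lay between, at 0.405, 0.387 and 0.362, and GCERAdT at 0.45, 0.543, 0.586 and 0.449. GCERAdT was the one group of these 3 whose range touched that of WT, from 0.57 upwards. The ratio of Atp6v0d2 to Atp6v0d1 was between 0.27 and 0.307 in WT and between 0.183 and 0.237 in GCERAd, also without overlap. The ratios of a4 to a1 and of G3 to G1 overlapped between WT and GCERAd.

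**Figure D3:**
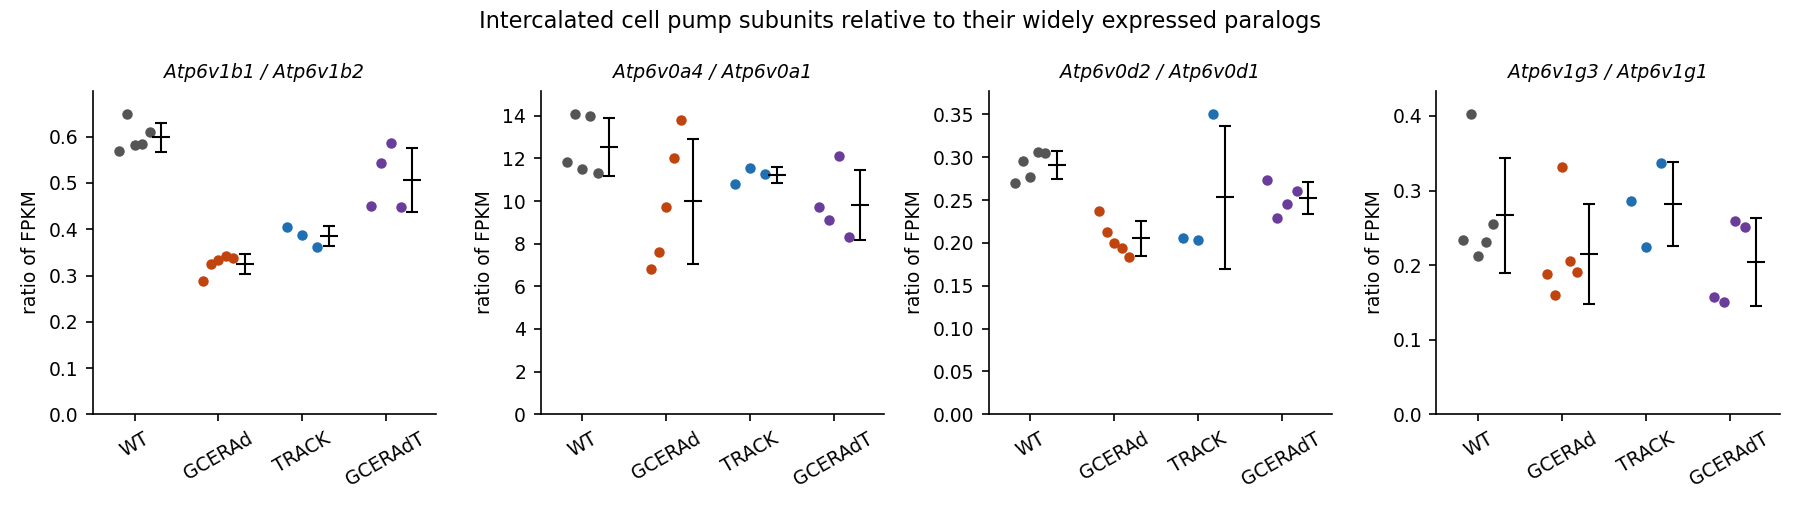
Ratio of FPKM (vertical axes, from 0) of the 4 intercalated cell pump subunits to their widely expressed paralogs in each library, by group, with mean ± SD beside the points. The B1 to B2 ratio was 0.599 ± 0.031 in WT and 0.325 ± 0.022 in GCERAd, and the d2 to d1 ratio also separated WT from GCERAd.

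Of 21 other genes of intercalated cells listed, 15 were tested, 5 were called lower and none higher in GCERAd, where 13.5% of all genes tested were called lower. The largest changes called were those of the transcription factor Dmrt2 (-0.72, adjusted p = 0.00546), of Tmem213 (-0.46, adjusted p = 0.000841) and of the Notch ligand Jag1 (-0.41, adjusted p = 0.00795). The ammonia channel Rhcg was also lower, at -0.28 (adjusted p = 0.017). The median of the 15 was -0.29, and 14 of them had a negative log2 fold change. The summed level of the list was between 1146 and 1266 CPM in WT and between 929 and 973 CPM in GCERAd 1 to 3. In GCERAd 4 and 5 it was at 1417 and 1291 CPM, above every WT library. That split followed Tfcp2l1, the gene with the highest level in the list, and not the list as a whole. Tfcp2l1 was between 425 and 526 CPM in WT and between 297 and 307 CPM in GCERAd 1 to 3. It was at 785 and 668 CPM in GCERAd 4 and 5.

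Genes of neighbouring segments were also lower in GCERAd than in WT, where 13.5% of all genes tested were called lower and 14.1% higher. Of 9 principal cell genes tested, of 10 listed, 7 were called lower, and the water channel gene Aqp2 was at -1.32 on the log2 scale (adjusted p = 0.00663). The summed level of the principal cell list was between 1078 and 1203 CPM in WT and between 481 and 754 CPM in GCERAd. Within GCERAd the sum of this list and the sum of the 9 members went opposite ways. The principal cell sum was at 717, 754 and 744 CPM in GCERAd 1 to 3 and at 500 and 481 CPM in GCERAd 4 and 5. The sum of the members was at 635, 660 and 674 CPM in the first 3 and at 801 and 850 CPM in the others. That split of the member sum followed Atp6v0a4, the member with the highest level, and not the members as a whole. Atp6v0a4 was at 272, 281 and 283 CPM in GCERAd 1 to 3 and at 408 and 474 CPM in GCERAd 4 and 5. In the thick ascending limb 5 of 6 genes were called lower, with Slc12a1 at -0.82 (adjusted p = 0.00131), and in the distal convoluted and connecting tubule 2 of 7 were. Of 3 genes with high levels in the medulla, 2 were called lower, with Slc14a2 at -2.24 (adjusted p = 0.0137). Of 7 proximal tubule genes 1 was called, Ggt1, which was higher (0.67, adjusted p = 0.00107). The part of dissection depth in the lower levels of the 9 genes was not tested.

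TRACK over WT compared the cancer model with the wild type. Of the 9 genes 5 were called lower and none higher, where 22.6% of the 11967 genes tested were called lower, 23% higher and 45.6% in either direction, so the 5 stood against a high background. Without WT 1 or without WT 5 the count was 3. The 5 were Foxi1, Slc26a4, Atp6v1b1, Slc4a9 and Slc4a1, and the first 3 did not overlap with WT, as 21.6% of all genes tested did in this direction. With the share of processed pseudogenes as a covariate 2 were called, Atp6v1b1 (-0.65, adjusted p = 0.00459) and Atp6v1g3 (-0.75, adjusted p = 0.0163). The calls lost with it were those of Foxi1 (-0.61, adjusted p = 0.155), Slc26a4 (-0.50, adjusted p = 0.147), Slc4a9 (-0.38, adjusted p = 0.312) and Slc4a1 (-0.27, adjusted p = 0.361). This comparison shares the WT libraries with GCERAd over WT.

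Both genes of type B cells were among the 5. Slc26a4 was at 51.5, 44.4 and 35.4 CPM in TRACK 1 to 3, below all WT libraries, with a log2 fold change of -0.57 ± 0.15 (SE, adjusted p = 0.0106, edgeR). Slc4a9 was at 38.0, 34.3 and 24.1 CPM, overlapping with WT, with a log2 fold change of -0.47 ± 0.16 (SE, adjusted p = 0.036). Foxi1 was at 30.4, 28.0 and 16.3 CPM, below all WT libraries, with -0.78 ± 0.19 (SE, adjusted p = 0.00739). TRACK 3 was the lowest library of its group for all 3 of these genes. The call of Slc4a9 was lost when any of WT 1, WT 4, WT 5, TRACK 2 or TRACK 3 was left out (adjusted p of up to 0.125), and with WT 4 and 5 summed (adjusted p = 0.0668). Without TRACK 3 the change of Slc4a9 was -0.30, and that of Foxi1 was -0.55 and still called.

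Among type A genes, Slc4a1 was at 41.8, 56.0 and 51.8 CPM in TRACK, overlapping with WT at its lowest library, with a log2 fold change of -0.38 ± 0.13 (SE, adjusted p = 0.0377). That call was lost when any of WT 1, WT 3, WT 5, TRACK 1 or TRACK 3 was left out, with adjusted p of up to 0.159. Aqp6 was at 32.3, 53.8 and 57.9 CPM, with -0.27 ± 0.20 (SE, adjusted p = 0.308). Globins were higher in TRACK too, with Hbb-bs at 230 ± 102 CPM (SD, n = 3) and a log2 fold change of 1.76 (adjusted p = 0.000687).

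Of the pump subunits, Atp6v1b1 alone was called. It was at 102, 99.9 and 84.4 CPM in TRACK, below all WT libraries, with a log2 fold change of -0.52 ± 0.08 (SE, adjusted p = 0.000773). Atp6v0a4 was at 383, 388 and 392 CPM, within the WT range, with -0.0083 ± 0.07 (SE, adjusted p = 0.932). Atp6v0d2 was at 33.8, 31.9 and 50.3 CPM, and TRACK 3 was above every WT library. Over all 3 its log2 fold change was -0.17 (adjusted p = 0.333), and without TRACK 3 it was -0.41 (adjusted p = 0.00443). Atp6v1g3 was at 52.0, 40.9 and 57.2 CPM, with -0.33 ± 0.16 (SE, adjusted p = 0.116).

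Of 15 other intercalated cell genes tested, 7 were called lower and 3 higher in TRACK. Of all genes tested, 22.6% were called lower and 23% higher, which holds for every list of this comparison. The share called higher here, and both shares among the pump genes below, did not exceed those of all genes. The vasopressin receptor gene Avpr1a (-1.27, adjusted p = 0.000394), the transcription factor gene Hmx2 (-1.03, adjusted p = 0.00823) and the receptor kinase gene Insrr (-1.0, adjusted p = 0.00156) fell most. Adgrf5 (0.77), Tfcp2l1 (0.65) and Kit (0.34) were higher. All 7 genes of the distal convoluted and connecting tubule, 7 of 9 principal cell genes and 4 of 6 genes of the thick ascending limb were called lower as well. Of 19 other pump genes 2 rose, Atp6v1a (0.55, adjusted p = 0.000663) and Atp6v1h, and 3 fell, with Atp6v0e2 at -0.81 (adjusted p = 3.37e-05) and Atp6v1c2 at -0.53 (adjusted p = 0.00173).

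**Figure D4:**
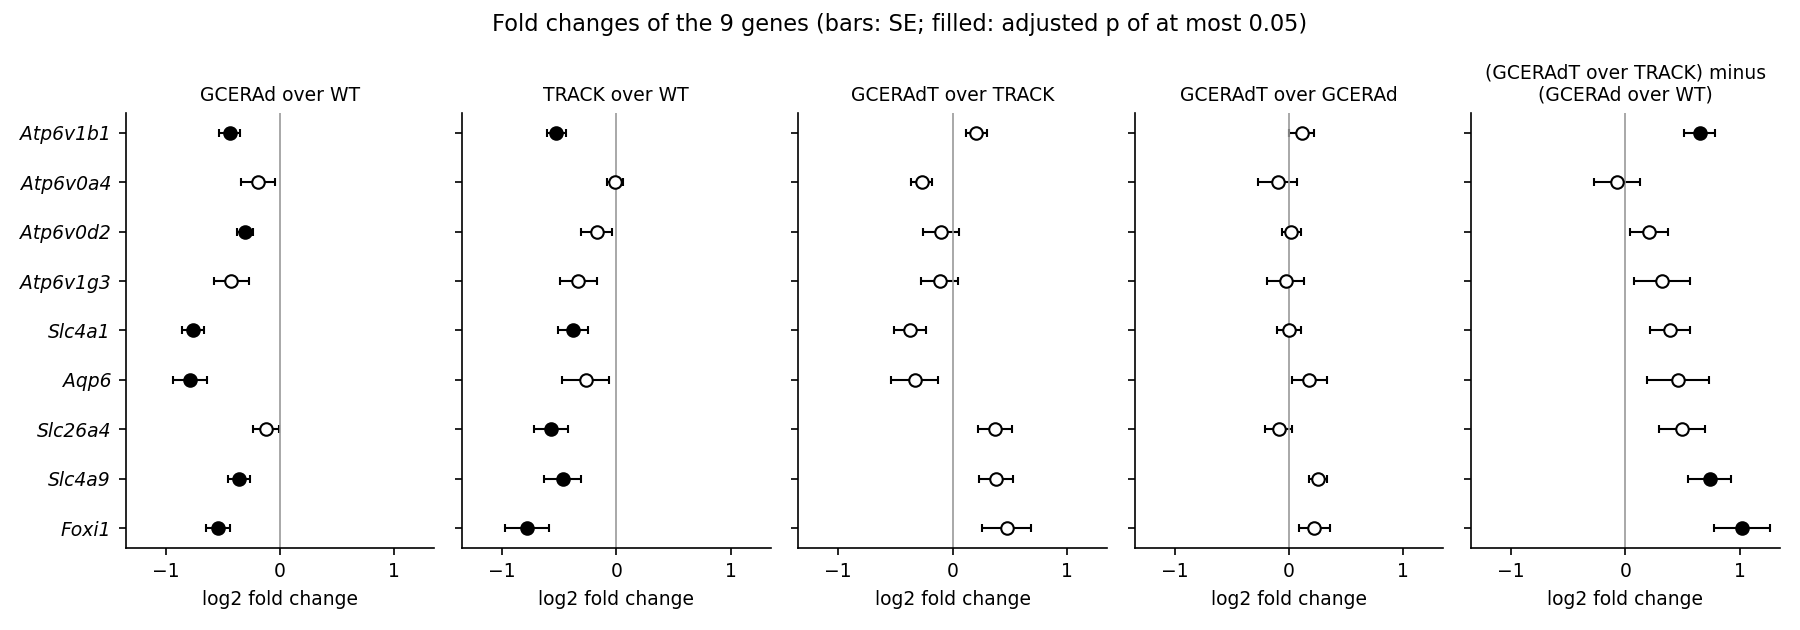
Log2 fold change (horizontal axes) of the 9 genes (vertical axis) in the 4 comparisons, and the difference of 2 of them in the last panel, with standard errors. Filled points had an adjusted p of at most 0.05: 6 genes for GCERAd over WT, 5 for TRACK over WT, none for GCERAdT over TRACK or over GCERAd, and 3 for the difference.

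GCERAdT over TRACK compared the knockout label within the cancer model, among libraries that all had Y-linked transcripts. None of the 9 genes was called by edgeR, 4 had an unadjusted p under 0.05 (Atp6v0a4, Slc4a1, Slc4a9 and Slc26a4), and DESeq2 called 1, Atp6v0a4 (adjusted p = 0.0253). Of the 11928 genes tested 7.09% were called, 2.81% higher and 4.28% lower. Atp6v0a4 was at 359, 304, 301 and 302 CPM in GCERAdT 1 to 4, below every TRACK library. It was the one member whose groups did not overlap, which 12.7% of all genes tested did in this direction, and its log2 fold change was -0.27 ± 0.09 (SE, adjusted p = 0.103, edgeR).

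Type A and type B genes had opposite signs here. Slc4a1 was at 33.1, 39.7, 32.6 and 46.6 CPM in GCERAdT, with a log2 fold change of -0.37 ± 0.14 (SE, adjusted p = 0.137), and it was called without GCERAdT 4 (-0.48, adjusted p = 0.0472). Aqp6 was at 32.6, 48.1, 35.6 and 34.1 CPM, with -0.33 ± 0.20 (SE, adjusted p = 0.342). Both overlapped with TRACK. Slc4a9, at 47.2, 40.5, 35.5 and 40.8 CPM, had 0.38 ± 0.15 (SE, adjusted p = 0.154). Slc26a4, at 59.9, 49.0, 46.6 and 67.1 CPM, had 0.37 ± 0.15 (SE, adjusted p = 0.164). Foxi1, at 30.9, 32.1, 27.7 and 45.3 CPM, had 0.47 ± 0.22 (SE, adjusted p = 0.21). None of these passed the threshold, and all overlapped with TRACK.

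Atp6v1b1 was at 101, 108, 115 and 110 CPM in GCERAdT, with a log2 fold change over TRACK of 0.21 ± 0.09 (SE, adjusted p = 0.207). Atp6v0d2 was at 37.4, 33.5, 31.6 and 39.6 CPM (-0.10, adjusted p = 0.711), and Atp6v1g3 at 36.9, 39.9, 54.5 and 51.1 CPM (-0.11, adjusted p = 0.697). Of 20 other pump genes tested none was called by edgeR and 2 had an unadjusted p under 0.05. Of 15 other intercalated cell genes, Avpr1a (1.41, adjusted p = 0.00284) and the carbonic anhydrase gene Car12 (0.50, adjusted p = 0.0295) were higher and Adgrf5 (-0.85, adjusted p = 0.00435) was lower.

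GCERAdT over GCERAd set the cancer model beside its absence among mice labelled as knockouts. None of the 9 genes was called by edgeR, where 19.2% of 11816 genes tested were (9.39% higher and 9.79% lower), and 1, Slc4a9, had an unadjusted p under 0.05. Same-numbered libraries of these groups deviated together, but here the numbers coincide with the pseudogene range, so a pairing of mice cannot be told apart from it. With the replicate number as a block none of the 9 was called either, and 31.9% of the genes tested were. All 9 overlapped between the groups, where 19.5% of all genes tested did not, and their median log2 fold change was 0.02. Slc4a9 had 0.25 ± 0.08 (SE, adjusted p = 0.0509), and DESeq2 called it (adjusted p = 0.0382), as did edgeR without GCERAdT 3 (adjusted p = 0.0258). Slc4a1 was at 38.4 ± 2.14 CPM (SD, n = 5) in GCERAd and at 38.0 ± 6.59 CPM (SD, n = 4) in GCERAdT. Of the widely expressed or other pump genes 5 of 20 fell and none rose, with Atp6v1b2 at -0.51 (adjusted p = 0.00403) and Atp6v1d at -0.42 (adjusted p = 0.00462). Atf4 itself was higher in GCERAdT than in GCERAd, at 0.52 (adjusted p = 0.0108).

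Whether the knockout label had the same effect in both backgrounds was tested as the difference of the log2 fold change of GCERAdT over TRACK and that of GCERAd over WT, over all 17 libraries. It was called for 3 of the 9 genes, all positive, where 12.3% of 12208 genes tested were called positive, 12.8% negative and 25.1% in either direction. Foxi1 had a difference of 1.02 ± 0.25 (SE, adjusted p = 0.00669), Slc4a9 of 0.74 ± 0.19 (SE, adjusted p = 0.00857) and Atp6v1b1 of 0.65 ± 0.14 (SE, adjusted p = 0.00265). In the higher pseudogene range alone, with 1 WT library, none of the 9 was called. For these 3 genes the values were lower in GCERAd than in WT and had positive log2 fold changes in GCERAdT over TRACK that were not called. All 3 were also called lower in TRACK over WT, and none was called in GCERAdT over GCERAd. Atf4 itself was called in the difference too, at 0.55, so the deleted gene did not change alike in the 2 backgrounds. Slc26a4 (0.49, adjusted p = 0.0793), Aqp6 (0.46, adjusted p = 0.225) and Slc4a1 (0.39, adjusted p = 0.109) were not called. Atp6v1g3 (0.32), Atp6v0d2 (0.21) and Atp6v0a4 (-0.07) were not called either, but Atp6v1g3 was with the pseudogene share as a covariate (0.65, adjusted p = 0.0269) and Atp6v0d2 without TRACK 3 (0.44, adjusted p = 0.0177). The contrast over WT compares libraries that differ in sex genes and the other does not, so sex cannot be told apart from the difference.

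Other collecting duct lists were mostly positive in that difference, and pump genes outside the 9 mostly negative. Of all genes tested, 12.3% were called positive and 12.8% negative. Of 15 other intercalated cell genes 7 were positive and called and 1 negative and called, with Avpr1a at 1.92 (adjusted p = 0.00015), Hmx2 at 1.12 (adjusted p = 0.0194) and Insrr at 0.97 (adjusted p = 0.0229). Of 9 principal cell genes 6 were called, all positive, and of 20 other pump genes 7 were called negative and 1 positive. Over these pump genes the median difference was -0.13, against 0.46 over the 9 members.

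Within groups the 9 genes did not vary as 1 block. Values of log2(CPM + 1) had their group mean removed, and genes were compared over the 17 libraries, which share depth, dissection and library preparation; the coefficients are a description. Slc26a4 and Slc4a9 had a Pearson r of 0.69, Foxi1 and Slc4a9 of 0.67, and Foxi1 and Slc26a4 of 0.59, so the type B genes and Foxi1 went up and down together. Slc4a1 and Aqp6, of type A cells, had an r of 0.67. Between the types the values were mostly negative, with -0.60 for Aqp6 and Slc26a4 and -0.33 for Aqp6 and Slc4a9. Of the pump subunits, Atp6v1b1 and Atp6v0a4 had an r of 0.43, and Atp6v1b1 and Atp6v0d2 of -0.48.

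**Figure D5:**
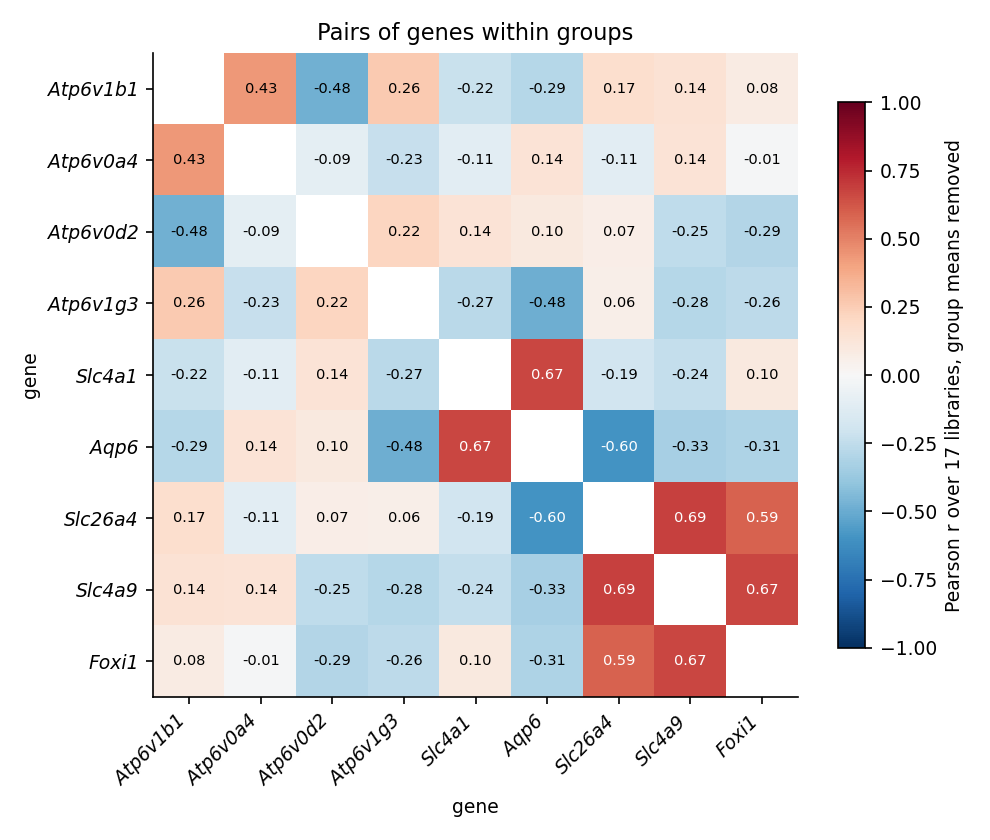
Pearson r of each pair of the 9 genes over 17 libraries after the group means were removed from log2(CPM + 1); red is positive and blue negative. Slc26a4, Slc4a9 and Foxi1 form 1 positive block, with 0.59 to 0.69, and Slc4a1 and Aqp6 another, with 0.67.

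Set against the mean of the other 8 genes, each scaled to unit SD, no member had an r above 0.28, the value of Slc26a4, and Aqp6 had -0.36. Slc26a4 stood at the percentile 72.7 of 13295 genes in this measure, and Aqp6 at 14.0. The genes outside the list whose residuals were most like the mean of all 9 were Slc2a5 (r = 0.90), Rrp12 (0.88), Prodh (0.87), Cyp2e1 (0.86), Iars (0.82), Azgp1 (0.80), Tsr1 (0.80), Parl (0.80), Utp15 (0.79) and Slc20a1 (0.79), the highest of 13303 genes with a mean of at least 1 CPM. None of these 10 was on the list of other intercalated cell genes.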

How the data were processed

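Renal cortex RNA was sequenced in 17 stranded libraries. After bcl2fastq 2.20, the authors used Cutadapt for trimming, STAR for alignment (GRCm38) and HTSeq-count to obtain raw read counts per gene, which were deposited without scaling. Their annotation release and strand setting are not given in the sources used here. The table held 48795 genes, all identified by Ensembl number, of which 663 had no name. Depth is given in the report, and p-values rest on the spread between libraries, some of which may share a mouse.

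Groups came from the sample labels. The 9 genes and all lists were chosen with earlier results of these data known, so no list was given a test of its own. Counts were scaled by TMM in edgeR 4.0.16 (R 4.3.3) and given as CPM. FPKM used merged exons of GENCODE M21, which gave a length for 48435 genes. Genes whose mean FPKM reached 1 in a group were tested by edgeR's quasi-likelihood fit of the groups compared, where the study's methods name DESeq2, and called at an adjusted p of at most 0.05. The difference between contrasts was fitted on all 17 samples. The procedure was tested on simulated data. Of each list the text names up to 3 called genes with the largest change and genes that define the cell type. Genes named beyond that rule (Rhcg, Atp6v1h, Kit, Tfcp2l1 and some uses of Adgrf5 and Car2) were chosen after their values were seen. The 10 genes most like the members were chosen by Pearson r.

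Alternatives were DESeq2 1.42.0, RLE scaling, no minimum or one over all samples, the replicate number as a block, all 17 samples in 1 fit, each library left out, the processed pseudogene share (at most 0.038% or at least 0.0574%) as a covariate, and WT 1 and 2 and GCERAd 2 and 3 summed. Chosen after seeing the data was the sum of the most alike pair in each of these groups, WT 4 and 5 and GCERAd 4 and 5. Left out in turn, also after seeing the data, were GCERAd 4 and 5, GCERAd 1, 2 and 3, and the libraries of either pseudogene range. No pair of replicates agreed within sampling noise (lowest median ratio to it 8.56), so none was merged in the report's values. Pairing was checked by correlating deviations from group means: in GCERAdT over GCERAd the 4 same-numbered pairs had r from 0.383 to 0.542, in all other comparisons r was at most 0.0475, so the numbers were taken to pair libraries in that comparison alone, where they coincide with the pseudogene range. Sex could not be a covariate, since no group held both sexes. Proteins of the pump subunits were not compared here, and some genes of the lists are not reported here.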

Additional observations from a re-analysis of the deposited data

Results flagged for a closer look

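In 27 tests of 1 library standing far from the others of its group, over 9 genes and the groups of 4 or 5 libraries, 2 stood apart, and chance alone gives about 1 in 20. Atp6v0a4 was at 359 CPM in GCERAdT 1, while the other 3 libraries of that group lay between 301 and 304 CPM. Atp6v1g3 was at 63.3 CPM in GCERAd 3, while the other 4 lay between 39.9 and 44.5 CPM.

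The log2 fold change of GCERAdT over TRACK differed from that of GCERAd over WT in 3 genes by the test of the difference itself (edgeR, quasi-likelihood test). It was larger by 1.02 for Foxi1 (adjusted p = 0.00669), by 0.74 for Slc4a9 (adjusted p = 0.00857) and by 0.65 for Atp6v1b1 (adjusted p = 0.00265). All 3 remained called with the pseudogene share as a covariate, at 0.96, 0.62 and 0.83. None was called among the 9 libraries of the higher pseudogene range alone, which hold 1 WT library (adjusted p = 0.207, 0.262 and 0.0613).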

How the results depend on the processing

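Of 954 checks of single genes, 843 kept their direction and their side of the threshold, 34 lost a call, 26 gained one and 51 changed sign; none of those that changed sign had been called, and the lowest adjusted p among them was 0.308. In GCERAd over WT, DESeq2, RLE scaling, other minimums, the block, the covariate, 1 fit of all 17 libraries, both sums of libraries and each left-out library gave between 5 and 7 called members. Sex, which follows WT, and, for TRACK, the pseudogene range limit the comparisons with WT. Wherever a value changed, the cause was not tested.

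With the replicate block, 2106 genes were called in GCERAd over WT, 3431 in TRACK over WT and 3770 in GCERAdT over GCERAd. Under it 1 member, Slc4a1, was called in GCERAdT over TRACK (adjusted p = 0.0468, edgeR). The numbers were taken to pair libraries only in GCERAdT over GCERAd, where they coincide with the pseudogene range. The block took the call of Slc4a9 in GCERAd over WT (adjusted p = 0.0604). Under the block Atp6v0a4 was at 0.059 in TRACK over WT and at 0.056 in GCERAdT over GCERAd, and Atp6v0d2 at -0.0051 in the latter. DESeq2 called 1 member, Atp6v0a4, and 1562 genes in GCERAdT over TRACK. In GCERAdT over GCERAd 1 member was called by DESeq2, RLE scaling, the minimum over all samples, the covariate, kind A alone (the 8 libraries of the lower pseudogene range) and without GCERAd 1, 2 and 3; the last was Atp6v0a4 (-0.43, adjusted p = 0.029), the others Slc4a9.

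With the covariate, 462 genes were called in GCERAdT over TRACK, and 2 members and 2776 genes in TRACK over WT. With kind B alone (the 9 libraries of the higher range, 1 of them WT), 0 members and 98 genes were called in GCERAd over WT, 1 member (Atp6v1b1) and 1475 genes in TRACK over WT, 221 genes in GCERAdT over TRACK, 349 in GCERAdT over GCERAd, and 0 members and 452 genes in the difference of the contrasts, where the single WT library was assumed to vary like the other groups.

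Values that changed sign were these. With the most alike pairs summed, Atp6v0a4 was at 0.016 in TRACK over WT, 0.013 in GCERAdT over GCERAd and 0.00088 in the difference, and Slc4a1 at 0.0081 in GCERAdT over GCERAd. Atp6v0a4 was at 0.15 without GCERAd 1, 2 and 3 and at 0.053 with kind B in GCERAd over WT; at 0.067 with the covariate and 0.068 with kind B in TRACK over WT; at 0.21 without GCERAd 4 and 5 and 0.28 with kind A in GCERAdT over GCERAd; and at 0.040 with the covariate and 0.20 without GCERAd 4 and 5 in the difference. Aqp6 was at 0.023 with the covariate and 0.025 with kind B in TRACK over WT. Atp6v1g3 was at 0.097 with the covariate and 0.095 with kind B in GCERAdT over TRACK, and in GCERAdT over GCERAd at 0.020 with the planned sums (WT 1 and 2, GCERAd 2 and 3), 0.090 without GCERAd 1, 2 and 3 and 0.082 with kind B. In that comparison Slc4a1 was at 0.0071 with DESeq2, 0.0072 with RLE scaling, 0.0064 with the minimum over all samples, 0.014 with 17 libraries, 0.00014 with the planned sums, 0.0043 without GCERAd 4 and 5, 0.031 without GCERAd 1, 2 and 3 and 0.099 with kind B. Atp6v0d2 was at -0.023 without GCERAd 4 and 5 and -0.055 with kind A, and without GCERAd 1, 2 and 3 Atp6v1b1 was at -0.012 and Slc26a4 at 0.038.

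With 1 library left out, 379 to 1424 genes were called in GCERAdT over TRACK (the lowest without GCERAdT 2, the highest without GCERAdT 4) and 1427 to 2336 in GCERAdT over GCERAd (the lowest without GCERAdT 2). Members called were 0 to 1 in each of these, 1 being Slc4a1 without GCERAdT 4 and Slc4a9 without GCERAdT 3, and 3 to 5 in TRACK over WT, with 3 without WT 1 or WT 5. In GCERAdT over GCERAd the values ranged from -0.17 to 0.053 for Atp6v0a4, -0.031 to 0.078 for Atp6v0d2, -0.12 to 0.11 for Atp6v1g3 and -0.11 to 0.073 for Slc4a1. They ranged from -0.23 to 0.14 for Atp6v0d2 and -0.24 to 0.0039 for Atp6v1g3 in GCERAdT over TRACK, from -0.027 to 0.017 for Atp6v0a4 in TRACK over WT, and from -0.15 to 0.064 for Atp6v0a4 in the difference.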

Other observations

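The list of proximal acid-base genes, which handle bicarbonate and ammonia upstream of the intercalated cells, was set beside the members. In GCERAd over WT 1 of its 9 genes was called, the carbonic anhydrase gene Car2 (-0.28, adjusted p = 0.0171, edgeR), which intercalated cells also express. Of all genes tested there 27.6% were called. In TRACK over WT 5 rose and 1 fell, where 23% of all genes tested rose and 22.6% fell. Pck1, the gluconeogenic enzyme gene, was at 1.61 on the log2 scale (adjusted p = 0.00012, edgeR) and Car4 at -1.10 (adjusted p = 0.00133). The summed level of the list was between 4838 and 6084 CPM in WT and between 9018 and 12926 CPM in TRACK. In GCERAd it was between 3427 and 3939 CPM in libraries 1, 2 and 3 and at 12657 and 12456 CPM in libraries 4 and 5, so that GCERAd lay on both sides of WT.

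In GCERAdT over TRACK the apical sodium-proton exchanger gene Slc9a3 (-0.44, adjusted p = 0.0103) and Car14 (-0.65, adjusted p = 0.0279) were called lower, and none of the 9 was called in the difference of the contrasts (1 had an unadjusted p under 0.05). In GCERAdT over GCERAd, Car2 (0.34, adjusted p = 0.0319) was higher and Car4 (-1.47, adjusted p = 0.0067) and Slc9a3 (-0.55, adjusted p = 0.00904) lower.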
